A study of Mus musculus with 55 samples.

Results

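H3K27me3-dependent imprinted genes are genes whose maternal allele is silenced after fertilization by a Polycomb histone mark inherited from the oocyte, rather than by oocyte DNA methylation. The genes *Gab1*, *Sfmbt2*, *Slc38a4*, *Jade1* and *Smoc1* were followed here by name, and all 5 were present among the 51734 genes of the oocyte tables and the 24421 genes of the embryo tables. They were listed for their known mode of imprinting, though earlier results of these data were known when they were chosen. The histone mark itself was not measured in the libraries. In mouse, this kind of imprint is widespread in the preimplantation embryo, fades in most cells of the embryo proper and is known to last longest in the placenta and the other extraembryonic tissues. Canonical imprints, by contrast, rest on DNA methylation laid down in the germ line by DNMT3A and its cofactor DNMT3L.

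The mutations of the study weaken the ADD domain, the part of DNMT3A and DNMT3L that binds the unmethylated tail of histone H3. Single fully grown oocytes (FGOs) came from females of 10 to 12 weeks that were wild type (18 oocytes), Dnmt3L-ADD (Dnmt3L D124A/D124A with Dnmt3a +/+, 8 oocytes), Dnmt3a-ADD (Dnmt3a ADA/ADA with Dnmt3L +/+, 8 oocytes) or double mutant (homozygous for both, 8 oocytes), and 10 wild-type oocytes had matured to metaphase II (MII) after hormone injection of the females. Both mutations are substitutions carried by the whole animal, with no Cre or transgene. The 3 embryos were labelled E9 and grew from double mutant oocytes fertilized in vitro with wild-type sperm of the JF1 strain and carried by foster females, so their maternal allele (mostly C57BL/6J background) came from a double mutant oocyte and their paternal allele from JF1. Parent of origin and strain therefore cannot be told apart in this 1 direction of cross, and values of wild-type embryos were not used here. The labels do not say which oocytes came from the same female, so the p-values measure the spread between these libraries.

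Total counts per oocyte ran from 7832458 to 23739871, and the embryos had 7534598, 8547786 and 6998944 counts that were assigned to an allele. Mapping rate split the oocyte libraries into a lower and a higher class of mapped reads, with all double mutant FGOs in the lower class, all Dnmt3L-ADD FGOs in the higher class and wild-type FGOs in both (8 lower, 10 higher). Oocyte markers summed to between 7790 and 14304 counts per 1000000 (CPM) in every oocyte group. Markers of theca and stroma cells were detected too, at a median of 17.1 CPM over 8 marker genes in wild-type FGOs, 10.4 in Dnmt3L-ADD, 7.20 in Dnmt3a-ADD, 3.15 in double mutant FGOs and 1.96 in MII oocytes. The 3 embryos did not have the same tissue makeup, and their marker sums are given with the alleles.

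On the mm10 assembly the members lie on 5 chromosomes. *Sfmbt2* spans chromosome 2, 10370510 to 10595253 (plus strand), and encloses 119 other genes of the tables, 71 of them microRNA genes of a cluster in its introns. Those 119 genes took 20 counts over all 52 oocytes against 403 for *Sfmbt2* itself. *Gab1* spans chromosome 8, 80764438 to 80880519 (minus strand), *Slc38a4* chromosome 15, 96994823 to 97055956 (minus strand), *Jade1* chromosome 3, 41555731 to 41616864 (plus strand), and *Smoc1* chromosome 12, 81026808 to 81186414 (plus strand). *Gab1*, *Sfmbt2* and *Jade1* overlap a gene on the other strand, and without a stated strand setting reads of the partners cannot be told apart.

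The sequence just before each start site shows how different the members are in CpG content, the substrate of DNMT3A. The 250 bases upstream of the RefSeq start nearest to the deposited one (GRCm38.p6) are printed for the 4 members that had an entry, 5′ to 3′ on the gene's strand, with every CG in capitals. The RefSeq start of *Sfmbt2* lies 59 bases from the deposited one.
Gab1, chr8:80880520-80880769, minus strand: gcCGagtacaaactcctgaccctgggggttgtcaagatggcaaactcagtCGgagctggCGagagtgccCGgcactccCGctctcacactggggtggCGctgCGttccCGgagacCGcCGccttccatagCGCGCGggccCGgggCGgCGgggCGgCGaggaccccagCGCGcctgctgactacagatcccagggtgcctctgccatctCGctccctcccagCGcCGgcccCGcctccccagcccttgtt
Jade1, chr3:41555484-41555733, plus strand: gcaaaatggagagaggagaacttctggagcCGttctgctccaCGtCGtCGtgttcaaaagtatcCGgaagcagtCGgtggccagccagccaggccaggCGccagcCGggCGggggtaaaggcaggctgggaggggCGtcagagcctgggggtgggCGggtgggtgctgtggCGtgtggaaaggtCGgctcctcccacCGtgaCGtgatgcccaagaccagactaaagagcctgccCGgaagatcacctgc
Sfmbt2, chr2:10370201-10370450, plus strand: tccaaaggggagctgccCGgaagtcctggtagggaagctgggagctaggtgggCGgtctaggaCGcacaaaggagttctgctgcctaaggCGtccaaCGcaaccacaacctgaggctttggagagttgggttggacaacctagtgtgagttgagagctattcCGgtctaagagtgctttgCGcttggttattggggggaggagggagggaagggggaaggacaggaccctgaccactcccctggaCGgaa
Slc38a4, chr15:97055957-97056206, minus strand: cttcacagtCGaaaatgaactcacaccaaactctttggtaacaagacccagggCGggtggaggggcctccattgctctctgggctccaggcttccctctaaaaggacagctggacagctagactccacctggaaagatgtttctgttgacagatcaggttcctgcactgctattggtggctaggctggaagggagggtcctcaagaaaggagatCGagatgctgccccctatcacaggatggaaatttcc
*Gab1* had 24 CpGs in this window, *Jade1* 16, *Sfmbt2* 8 and *Slc38a4* 3, and the median over 32851 RefSeq windows of the same length was 6. The G and C content was 70.8%, 64.4%, 58.4% and 52.8% in the same order. Of all windows, 88.0% held fewer CpGs than that of *Gab1* and 29.0% held fewer than that of *Slc38a4*. At least 1 CpG was found in 92.1% of the windows. The pair most strongly skewed to the paternal allele below, *Sfmbt2* and *Gab1*, lay on both sides of *Jade1* in this count.

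*Sfmbt2* and *Gab1* were expressed chiefly from the paternal allele in embryos 2 and 3, and much less so in embryo 1. *Slc38a4* was skewed to the paternal allele in all 3 embryos, and *Jade1* and *Smoc1* were read from both alleles. The maternal share is the part of a gene's allelic counts that was assigned to the maternal allele. Its median over 10192 autosomal genes was 51.3%, 58.1% and 51.3% in embryos 1, 2 and 3. Intervals beside a share are 95% Wilson intervals and cover counting error only.

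*Sfmbt2* encodes a Polycomb group protein needed in the trophoblast. Its maternal and paternal alleles had 40 and 68 counts in embryo 1, 27 and 2310 in embryo 2, and 67 and 2444 in embryo 3. The maternal share was 37.0% (28.5 to 46.4) in embryo 1, 1.16% (0.795 to 1.68) in embryo 2 and 2.67% (2.11 to 3.37) in embryo 3. Embryos 2 and 3 were close to each other and embryo 1 stood apart, with an interval that did not meet theirs. Of 7072 autosomal genes with at least 100 allelic counts in every embryo, 1 had a lower maternal share than *Sfmbt2* in embryo 2 and 2 had a lower share in embryo 3.

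The 2 alleles of *Sfmbt2* moved separately between embryos. Scaled to counts per 1000000 (CPM) of allelic counts in the embryo, the paternal allele was at 9.03 in embryo 1, 270 in embryo 2 and 349 in embryo 3. The maternal allele was at 5.31, 3.16 and 9.57. The paternal allele was thus 29.9-fold higher in embryo 2 and 38.7-fold higher in embryo 3 than in embryo 1, while the maternal allele was at 0.595 and 1.80 times its level in embryo 1. The paternal level thus made up nearly all of the gene's difference between embryos. In these bulk samples, fewer cells of a type and less RNA per cell cannot be told apart.

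*Gab1* encodes a docking protein that passes signals from growth factor receptors and is needed in the placenta. Its alleles had 345 maternal and 435 paternal counts in embryo 1, 289 and 1213 in embryo 2, and 203 and 1115 in embryo 3. The maternal share was 44.2% (40.8 to 47.7), 19.2% (17.3 to 21.3) and 15.4% (13.6 to 17.5). Embryos 2 and 3 again lay together and far below embryo 1. The paternal allele stood at 57.7, 142 and 159 CPM in embryos 1, 2 and 3, and the maternal allele at 45.8, 33.8 and 29.0. The paternal allele was 2.46-fold and 2.76-fold higher in embryos 2 and 3 than in embryo 1, and the maternal allele was at 0.738 and 0.633 times its level there. The maternal share of *Gab1* was larger than that of *Sfmbt2* in every embryo.

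*Slc38a4* encodes a sodium-coupled amino acid transporter of liver and placenta. It had 597 maternal and 1483 paternal counts in embryo 1, 1402 and 2708 in embryo 2, and 1351 and 2052 in embryo 3. The maternal share was 28.7% (26.8 to 30.7), 34.1% (32.7 to 35.6) and 39.7% (38.1 to 41.4), a mean of 34.2% ± 5.50 (SD, n = 3). All 3 embryos lay below the autosomal median, with the lowest share in embryo 1. Scaled to an autosomal median of equal alleles, the shares were 27.6%, 27.2% and 38.4%, so that embryos 1 and 2 were alike. Both alleles of *Slc38a4* were higher in embryos 2 and 3 than in embryo 1, the maternal allele 2.07-fold and 2.44-fold and the paternal allele 1.61-fold and 1.49-fold.

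*Jade1* encodes a PHD finger protein of histone acetyltransferase complexes. Its alleles had 212 maternal and 179 paternal counts in embryo 1, 663 and 432 in embryo 2, and 414 and 525 in embryo 3. The maternal share was 54.2% (49.3 to 59.1), 60.5% (57.6 to 63.4) and 44.1% (40.9 to 47.3). Embryos 1 and 2 were on the maternal side and embryo 3 on the paternal side of an equal share, which the interval of embryo 1 included. Scaled to an autosomal median of equal alleles, the shares of *Jade1* were 52.9%, 52.5% and 42.8%. Both alleles were higher in embryos 2 and 3 than in embryo 1, by 2.10-fold to 3.16-fold.

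*Smoc1* encodes a secreted calcium-binding protein of the extracellular matrix. Its alleles had 323 maternal and 320 paternal counts in embryo 1, 472 and 403 in embryo 2, and 455 and 561 in embryo 3. The maternal share was 50.2% (46.4 to 54.1), 53.9% (50.6 to 57.2) and 44.8% (41.8 to 47.9), a mean of 49.7% ± 4.61 (SD, n = 3). Embryos 1 and 2 were slightly above an equal share and embryo 3 below it, and each was below the autosomal median of its embryo, by the least in embryo 1.

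**Figure D1:**
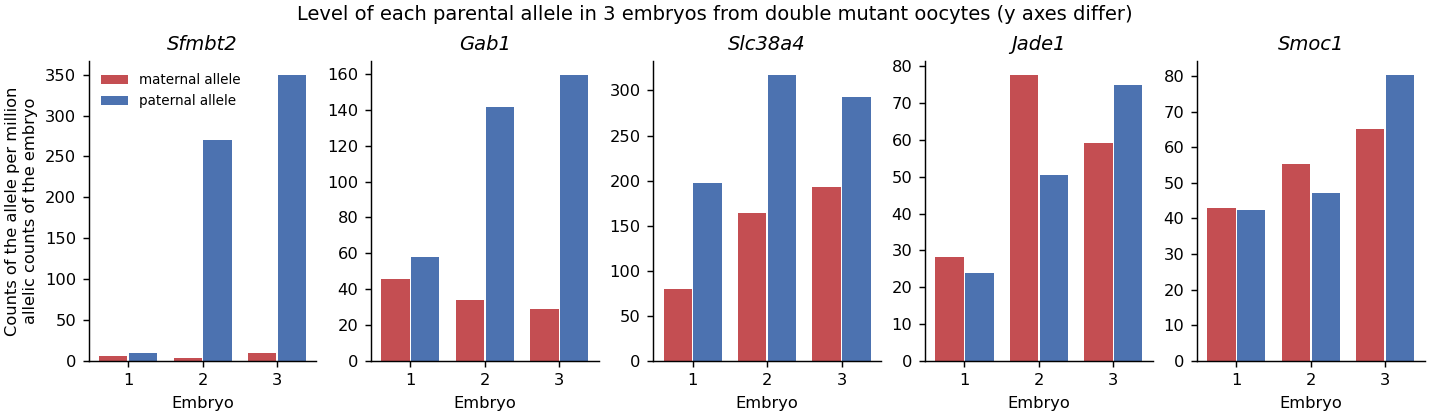
Counts of the maternal (red) and paternal (blue) allele of each member in counts per 1000000 (CPM) of the embryo's allelic counts, in the 3 embryos from double mutant oocytes; bars start at 0 and y axes differ. The paternal bar of Sfmbt2 rises from 9.03 in embryo 1 to 270 and 349 in embryos 2 and 3 while the maternal bar stays under 10, and both alleles of Jade1 and Smoc1 are present in every embryo.

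In embryos 2 and 3, the neighbours of the members had maternal shares of at least 43.1%. Neighbours are the nearest genes on each side with at least 100 allelic counts in every embryo, and some lie far away. *Elf2*, a neighbour of *Jade1*, starts at 51252720 on chromosome 3, where *Jade1* ends at 41616864. For *Sfmbt2*, the nearest genes with at least 100 allelic counts in every embryo were *Kin* and *Itih5* on 1 side and *Pfkfb3* and *Rbm17* on the other. Their maternal shares were between 45.4% and 80.7% in the 3 embryos. For *Gab1*, the neighbours *Smarca5* and *Usp38* had shares of 56.2% and 52.4% in embryo 2 and 57.5% and 52.3% in embryo 3, where *Gab1* had 19.2% and 15.4%. *Anapc10* was at 28.9% in embryo 1 and at 43.1% and 47.1% in the other two, the opposite order to *Gab1*. For *Slc38a4*, the related transporters *Slc38a1* and *Slc38a2* lie on the same chromosome and had shares of 59.7% and 51.4% in embryo 1, 57.5% and 60.8% in embryo 2, and 58.7% and 51.9% in embryo 3. *Slc38a1* is itself listed among genes with an H3K27me3 imprint. Its share was above an equal share in every embryo, and in embryo 2 it was below the autosomal median of 58.1%.

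Over the 20 neighbours, the mean share over embryos had a median of 55.8%, from 39.7% (*Anapc10*) to 75.0% (*Sclt1*). None of the neighbours had a maternal share under 40% in every embryo. Of the members, *Sfmbt2* and *Slc38a4* (2 of 5) did, and among the 7072 autosomal genes with at least 100 allelic counts this held for 52, or 0.735%.

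Among other genes reported to carry an H3K27me3 imprint, none had shares as low as those of *Sfmbt2* and *Gab1* in embryos 2 and 3, where the lowest were 42.5% and 40.8%. Of 17 such genes, 15 had at least 10 allelic counts in every embryo, whose mean maternal shares had a median of 50.7%, from 44.8% (*Sox21*, a neural transcription factor) to 66.6% (*Prox1*, a transcription factor of lymphatic and liver cells). None was under 40% in every embryo, and 11 of the 15 had a mean between 40% and 60%. *Otx2* had no allelic count in any embryo and *Matk* had 1 in all, so their alleles could not be compared. Many of these genes are known as imprinted in the early embryo alone. The median over all 10192 autosomal genes was 53.7%.

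Canonical paternally expressed genes, whose maternal silencing needs DNA methylation of the oocyte, were also mostly read from both alleles. Of 18 listed, 17 were measured, with a median of the mean shares of 46.4%. *Peg3*, a zinc finger gene of the classical imprinted set, had maternal shares of 50.9%, 48.5% and 48.1%, and *Impact* had 43.5%, 44.9% and 41.5%. Exceptions differed between embryos and not as in *Sfmbt2* and *Gab1*, and some were low together with other genes of their region. *Peg10*, a retrotransposon-derived placental gene, had 51.2%, 10.0% and 50.1%, and *Sgce* of the same cluster had 51.0%, 20.9% and 48.8%. *Ndn*, of the Prader-Willi region, had 4%, 26.6% and 36.6%. Other genes of that region were also low in embryo 1. *Magel2* had 0%, 39.8% and 68.6%, *Mkrn3* 9.30%, 78.9% and 50%, and *Peg12* 9.92%, 45.8% and 44.4%. *Magel2* and *Mkrn3* had 43 allelic counts each in embryo 1. In embryo 3, where the share of *Sfmbt2* was 2.67%, the lowest of the 17 was 36.6%. In embryo 1, 5 of the 17 were under 40%. *Peg3*, *Impact*, *Peg10*, *Sgce*, *Magel2*, *Mkrn3* and *Peg12* were chosen as examples after their values were seen.

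**Figure D2:**
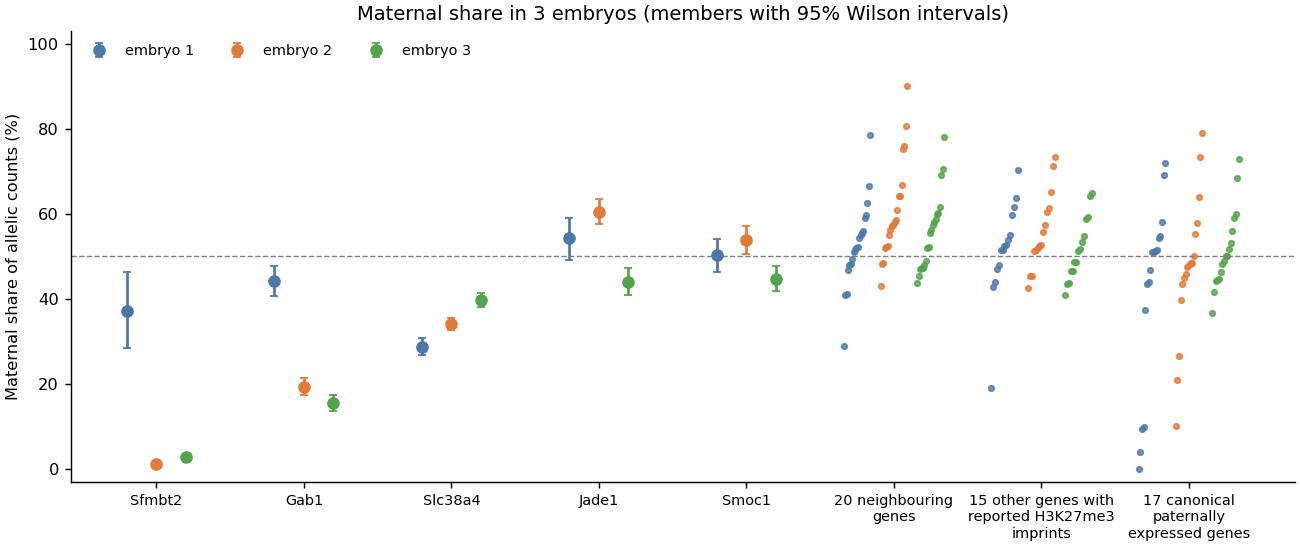
Maternal share of allelic counts (y axis, percent) in embryos 1 (blue), 2 (orange) and 3 (green) for the 5 members with 95% Wilson intervals, and for 20 neighbouring genes, 15 other genes with a reported H3K27me3 imprint and 17 canonical paternally expressed genes as single points. Sfmbt2 and Gab1 lie between 1.16% and 19.2% in embryos 2 and 3, Slc38a4 between 28.7% and 39.7% in all 3, and Jade1 and Smoc1 on both sides of the dashed line at 50%.

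Markers of extraembryonic tissue, like the paternal level of *Sfmbt2* and *Gab1*, were higher in embryos 2 and 3 than in embryo 1. For yolk sac endoderm, embryo 2 was above embryo 3, unlike the paternal level of these genes. The summed level of 14 trophoblast markers, in allelic CPM, was 24 in embryo 1 and reached 218 and 293 in embryos 2 and 3, with 9, 5 and 7 of the markers at 0. *Elf5*, a transcription factor of trophoblast stem cells, had 3, 595 and 587 allelic counts, and *Rhox6*, a placental homeobox gene, had 1, 410 and 362. Markers of later trophoblast, *Prl3b1*, *Tpbpa* and *Ctsq*, had no allelic count in any embryo. Only reads that cover a difference between the strains can be assigned to an allele, so a 0 here does not show that a gene was silent. The blood genes *Hba-a1* and *Hbb-bt* were also at 0 in every embryo, beside 12679 counts of *Hba-x* in embryo 1. *Rhox6*, *Rhox9* and *Plac1* of this list are X-linked and had maternal shares of at least 82.8% in embryos 2 and 3, while those of the autosomal *Elf5* were 55.8% and 60%. The sum over 12 markers of yolk sac endoderm was 207, 4982 and 1911, with *Cubn*, the uptake receptor of the yolk sac, at 278, 14457 and 4076 counts.

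Markers of the embryo proper and of blood moved the other way. The 12 markers of the embryo proper summed to 1043, 145 and 395 CPM in embryos 1, 2 and 3, and the 6 blood markers to 3774, 11.2 and 4.29. All 3 were labelled as embryo, and blood markers were close to absent from embryos 2 and 3. The 8 decidua markers summed to 12.6, 45.3 and 13.7, and 82.9% of that sum was maternal in embryo 2. RNA of the foster females could also be counted as maternal, and its part in the maternal shares was not tested. The 2 embryos in which *Sfmbt2* and *Gab1* were paternal were those with the higher sums of trophoblast and yolk sac markers, and the part of tissue makeup in the allelic skew was not tested. *Jade1* and *Smoc1* were also present at higher levels in those embryos, with maternal shares between 44.1% and 60.5%.

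**Figure D3:**
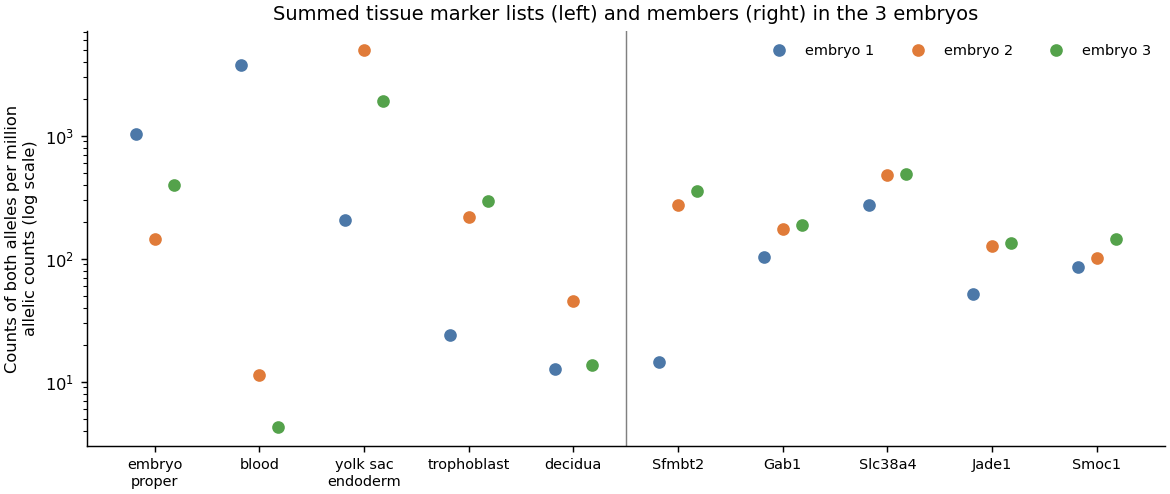
Allelic CPM of both alleles (log scale) in embryos 1 (blue), 2 (orange) and 3 (green), summed over tissue marker lists on the left and for each member on the right. Trophoblast markers (24, 218 and 293) and Sfmbt2 are lowest in embryo 1, and blood markers (3774, 11.2 and 4.29) are highest there.

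The alleles were compared over the 3 embryos with edgeR, with the embryo as a block. The log2 difference of the maternal against the paternal allele was -4.60 for *Sfmbt2* (SE 1.38, adjusted p = 0.213), -1.86 for *Gab1* (SE 0.49, adjusted p = 0.184) and -1.17 for *Slc38a4* (SE 0.18, adjusted p = 0.0755). It was -0.24 for *Smoc1* (SE 0.11, adjusted p = 0.343) and -0.05 for *Jade1* (SE 0.16, adjusted p = 0.885). No member passed an adjusted p of 0.05 in edgeR, as 0.812% of 10844 genes did, and 3 of 5 were lower on the maternal allele at an unadjusted p under 0.05, as 8.17% of all genes were. The median over the members was -1.17, and 0.02 over all genes.

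These calls differed with the tool and the embryos used. With DESeq2, *Sfmbt2* (adjusted p = 0.0119) and *Slc38a4* (adjusted p = 1.94e-07) passed and *Gab1* did not (adjusted p = 0.0581), where 6.24% of genes passed, against 0.812% in edgeR. In embryos 2 and 3 alone (edgeR), *Sfmbt2* differed by -6.01 (SE 0.33, adjusted p = 3.59e-11), *Gab1* by -2.57 (SE 0.22, adjusted p = 3.31e-08) and *Slc38a4* by -1.08 (SE 0.23, adjusted p = 0.00328), with 772 of 10957 genes (7.05%) called, and the errors of *Sfmbt2* and *Gab1* were smaller than with embryo 1. These 2 embryos had already been seen to share the skew of *Sfmbt2* and *Gab1*, so that fit is given as a description. Without embryo 2 the differences were -3.16 for *Sfmbt2* and -1.47 for *Gab1* (adjusted p = 0.407 and 0.379), and without embryo 3 they were -3.94 and -1.51 (adjusted p = 0.589 and 0.580), with no member called by edgeR in either and *Slc38a4* at an unadjusted p under 0.05 in both. In embryos 2 and 3, *Jade1* (-0.17, SE 0.22) and *Smoc1* (-0.34, SE 0.21) were not called. Without scaling between the alleles the median of all genes moved from 0.02 to 0.23, and *Jade1* changed from -0.05 to 0.17.

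In oocytes, *Gab1* was well detected and the other 4 members had few counts, with medians of at most 10.5 per oocyte in every group. Relative to transcript length, *Gab1* was the highest in wild-type FGOs, at 1.11 ± 0.665 RPKM (counts per kilobase of exon per 1000000 counts, SD, n = 18), above 70.4% of the 38217 genes with a count there. *Smoc1* followed at 0.170 ± 0.131, *Jade1* at 0.103 ± 0.0652, *Sfmbt2* at 0.0685 ± 0.0375 and *Slc38a4* at 0.0680 ± 0.0588 RPKM. From *Smoc1* down, each step in this order was smaller than the SD of the higher gene. Low counts were mostly even numbers (86.4% of the 125 counts of the members between 1 and 10, and 65.3% over all genes), and counting intervals do not cover reads that are counted together.

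*Gab1* was present in every oocyte. Its level was between 1.41 and 12.1 CPM in wild-type FGOs (median 4.98), 1.15 and 8.68 in Dnmt3L-ADD (3.74), 1.06 and 7.03 in Dnmt3a-ADD (3.99), 1.47 and 17.7 in double mutant FGOs (4.39), and 0.743 and 5.29 in MII oocytes (2.77). All 5 groups overlapped. Within wild-type FGOs, *Gab1* averaged 7.31 ± 3.71 CPM (SD, n = 8) in the lower class of mapped reads and 4.28 ± 2.51 (SD, n = 10) in the higher class.

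*Sfmbt2* ran from 0 to 1.08 CPM in wild-type FGOs (median 0.673), 0 to 1.37 in Dnmt3L-ADD (0.139), 0.106 to 1.92 in Dnmt3a-ADD (0.805), 0.142 to 0.854 in double mutant FGOs (0.422) and 0 to 0.754 in MII oocytes (0.331). *Jade1* ran from 0.255 to 2.36 CPM in wild-type FGOs (median 0.823), 0.294 to 0.842 in Dnmt3L-ADD (0.696), 0.245 to 4.24 in Dnmt3a-ADD (0.643), 0.201 to 0.997 in double mutant FGOs (0.665) and 0 to 1.25 in MII oocytes (0.350). The groups overlapped for both genes, and the 4.24 CPM of *Jade1* came from 1 oocyte.

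*Slc38a4* was the least detected. It had no count in 4 of 18 wild-type, 4 of 8 Dnmt3L-ADD, 3 of 8 Dnmt3a-ADD and 2 of 8 double mutant FGOs and in 4 of 10 MII oocytes, and its highest level was 0.743 CPM. It did not pass the filter on low counts. Tested without that filter in edgeR, its log2 difference from wild-type FGOs was -0.61 in Dnmt3L-ADD (SE 0.73), -0.31 in Dnmt3a-ADD (SE 0.70) and 0.25 in double mutant FGOs (SE 0.67), with adjusted p of 0.665, 0.835 and 0.888. In MII oocytes it was -0.52 (SE 0.68, adjusted p = 0.611 in edgeR). With errors of this size, a log2 difference of 1 was not detectable at this depth.

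**Figure D4:**
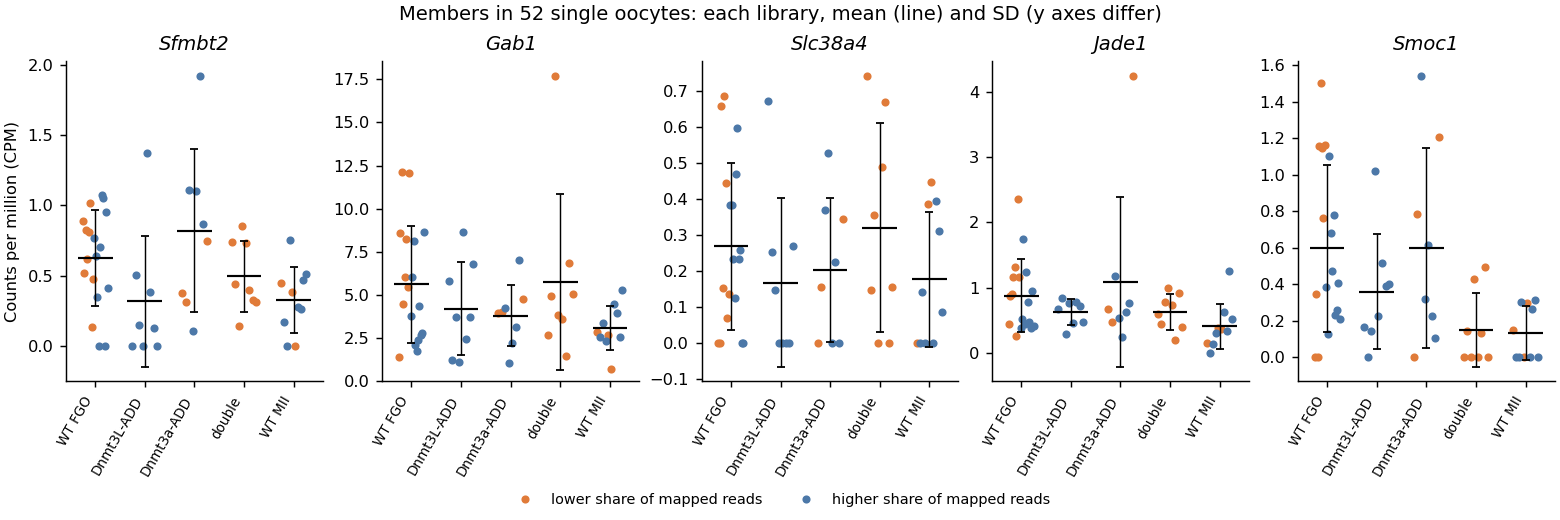
CPM of each member in the 52 single oocytes by group, coloured by the class of mapped reads; lines and bars are the mean and SD, and y axes differ. Groups overlap in every panel, and double mutant FGOs and MII oocytes lie low for Smoc1 (highest values 0.496 and 0.312 CPM).

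Neither single mutation changed a tested member past the threshold. Of the 4 members that passed the filter, none was called in Dnmt3L-ADD FGOs by edgeR, by its exact test or by DESeq2, where 6.13% of 15726 genes were called by edgeR, and none had an unadjusted p under 0.05, as 22.5% of genes did. The log2 differences were -0.98 for *Sfmbt2* (SE 0.55), -0.77 for *Smoc1* (SE 0.61), -0.44 for *Jade1* (SE 0.38) and -0.41 for *Gab1* (SE 0.38). Without the 1 oocyte at 1.37 CPM the difference of *Sfmbt2* was -1.65 (SE 0.58, adjusted p = 0.0810 in edgeR). In Dnmt3a-ADD FGOs none of the 4 was called by the 3 tests and none had an unadjusted p under 0.05 in edgeR, where 15.7% of genes were called and 30.7% had such a p. There the differences were 0.44 for *Sfmbt2* (SE 0.48), 0.35 for *Jade1* (SE 0.36), 0.08 for *Smoc1* (SE 0.55) and -0.54 for *Gab1* (SE 0.39). Without the 1 oocyte at 4.24 CPM the difference of *Jade1* was -0.42.

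In double mutant FGOs, which share the genotype of the embryos' oocyte donors, *Smoc1* was lower and the other tested members were not called. *Smoc1* had 0, 0.147, 0, 0.427, 0, 0.134, 0.496 and 0 CPM in the 8 double mutant FGOs and ran from 0 to 1.5 CPM in wild-type FGOs (median 0.439). Of the double mutant FGOs, 4 had no count, against 2 of 18 wild-type FGOs. The log2 difference was -1.99 (SE 0.68, adjusted p = 0.0474 in edgeR), 1 of 4 members, where 12.2% of genes were called and 6.74% were called lower. The ranges overlapped. *Sfmbt2* (-0.34, SE 0.51), *Jade1* (-0.49, SE 0.38) and *Gab1* (0.01, SE 0.37) had adjusted p of 0.693, 0.404 and 0.992 in edgeR, and *Gab1* differed by -0.50 without the 1 oocyte at 17.7 CPM.

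The call for *Smoc1* lay at the threshold. With the class of mapped reads as a covariate the difference was -2.25 and the adjusted p 0.0861 (edgeR), without the filter on low counts the adjusted p was 0.0923, and leaving out 1 of the double mutant replicates 1, 2, 3, 5, 6 or 8 gave adjusted p between 0.0608 and 0.0981. Against the 8 wild-type FGOs of the same class it averaged 0.151 ± 0.202 CPM (SD, n = 8) in double mutant and 0.759 ± 0.578 (SD, n = 8) in wild-type FGOs. These averages are given as a description, since the gene was chosen for its call. Markers of theca and stroma fell with it, 6 of 7 tested being called lower in double mutant FGOs (edgeR), and their summed level ran from 2.21 to 3.74 CPM there and from 9.55 to 87.7 CPM in wild-type FGOs (11.6 to 38 in their lower class). Of 10 granulosa markers 6 were called lower, where 6.74% of all genes were called lower. Their sum overlapped (107 to 149 against 105 to 200 CPM), but it does not follow the list as a whole. In MII oocytes the median log2 difference of the granulosa markers was -3.77, with a sum still at 100.1 to 123 CPM. The part of these cells in the level of *Smoc1* was not tested.

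Between the mutants, *Smoc1* was lower in double mutant than in Dnmt3a-ADD FGOs (-2.07, SE 0.75, adjusted p = 0.0320 in edgeR), where 30.9% of genes were called and 14.9% were called lower, a call that ended without the filter (adjusted p = 0.0640). Dnmt3a-ADD FGOs had 0 to 1.54 CPM of it (median 0.465). Against Dnmt3L-ADD FGOs the difference was -1.22 (SE 0.80, adjusted p = 0.262 in edgeR), and no member was called by edgeR, its exact test or DESeq2, nor had an unadjusted p under 0.05 in edgeR, where 24.2% of genes were called and 38% had such a p. The differences of *Gab1* were 0.54 (SE 0.45) against Dnmt3a-ADD and 0.41 (SE 0.44) against Dnmt3L-ADD FGOs, and neither was called.

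Against wild-type FGOs, MII oocytes had less *Smoc1* and *Jade1*. *Smoc1* differed by -1.99 on the log2 scale (SE 0.64, adjusted p = 0.0109 in edgeR), with no count in 5 of 10 MII oocytes and overlapping ranges. *Jade1* differed by -1.02 (SE 0.39, adjusted p = 0.0351 in edgeR), a call that ended with the class of mapped reads as a covariate (adjusted p = 0.0668) and without the filter (0.0641). *Gab1* differed by -0.79 (SE 0.35, adjusted p = 0.0647 in edgeR) and *Sfmbt2* by -0.85 (SE 0.51, adjusted p = 0.180 in edgeR). These were 2 of 4 tested members called lower, where 39.1% of 15784 genes were called and 22.6% were lower. All 4 tested members had a lower estimate in MII oocytes, with a median of -0.93 against -0.05 over all genes. Theca and stroma markers were lower as well, with 6 of 7 called and a sum of 1.35 to 9.14 CPM in MII oocytes, and so were granulosa markers, with 7 of 10 called, a median difference of -3.77 and a sum of 100.1 to 123 CPM. Their part in these differences was not tested.

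**Figure D5:**
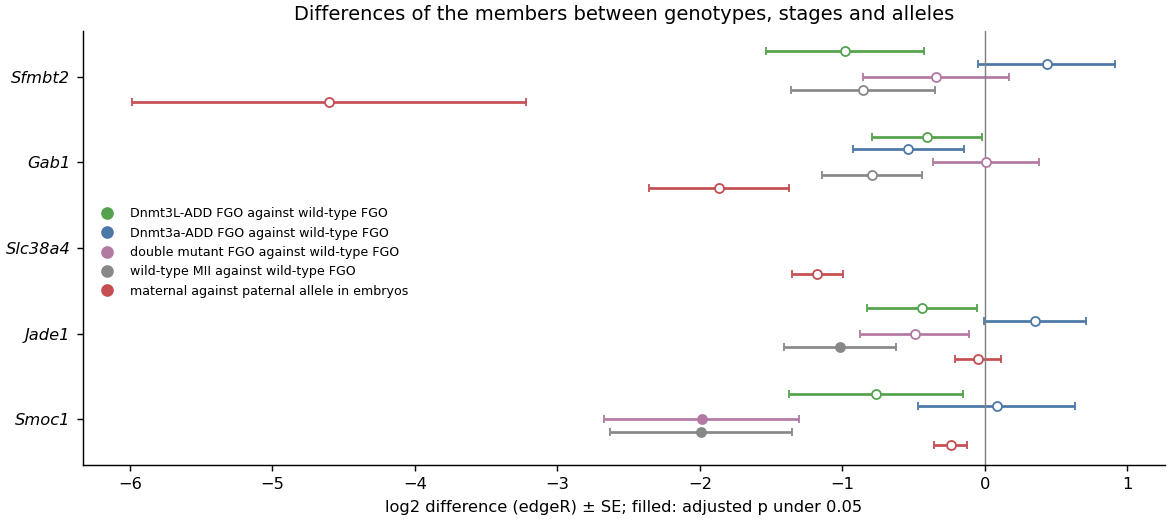
log2 differences of the members (x axis, with SE) for each mutant FGO and for MII oocytes against wild-type FGOs and for the maternal against the paternal allele in embryos; filled points have an adjusted p under 0.05 in edgeR. The filled points are Smoc1 in double mutant FGOs (-1.99) and Smoc1 and Jade1 in MII oocytes (-1.99 and -1.02), and Slc38a4 has a point for the alleles alone because it did not pass the filter in oocytes.

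Genes of the Polycomb machinery and of the enzymes that remove H3K27me3, apart from *Ring1*, differed little in size in the mutant FGOs, by at most 0.32 among those called. *Ring1*, at a mean of 1.29 CPM in wild-type FGOs, was not called in edgeR. It differed by -1.25 in Dnmt3L-ADD (SE 0.50, adjusted p = 0.126), -0.33 in Dnmt3a-ADD (SE 0.46, adjusted p = 0.662) and 0.79 in double mutant FGOs (SE 0.42, adjusted p = 0.211). Of 20 listed, all were tested. None was called in Dnmt3L-ADD FGOs by edgeR (6 at an unadjusted p under 0.05), 2 were higher in Dnmt3a-ADD FGOs (*Mtf2*, an accessory subunit, by 0.29, and *Rnf2*, a histone H2A ubiquitin ligase, by 0.14), and in double mutant FGOs 2 were lower (*Rybp* by -0.32 and the H3K27 methyltransferase *Ezh2* by -0.24) and 1 higher (*Aebp2*, 0.23). Against all genes called (6.13%, 15.7% and 12.2% in the 3 mutants), these counts of 0, 2 and 3 of 20 are close to the background. The median difference over the 20 genes was 0.04, 0.06 and -0.01 in the 3 mutants. *Ezh2*, *Rybp* and *Aebp2* also differed between the 2 classes of wild-type FGOs, in the same directions (-0.21, -0.53 and 0.19), where 25.4% of genes were called. In MII oocytes 8 were higher and 2 lower, where 39.1% of 15784 genes were called (2610 higher and 3560 lower). The differences of the 20 genes ran there from -1.55 (*Ring1*) to 0.36 (*Rybp*).

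Of the 17 other genes with a reported H3K27me3 imprint, 13 were tested in FGOs. Called were 1 in Dnmt3L-ADD, 3 in Dnmt3a-ADD and 3 in double mutant FGOs, each of them lower, where 6.13%, 15.7% and 12.2% of all genes were called, with medians over the 13 of -0.20, 0.03 and -0.50 against -0.03, -0.03 and -0.01 over all genes. *Epas1*, a hypoxia-induced transcription factor, differed by -0.80 in Dnmt3L-ADD FGOs (SE 0.25, adjusted p = 0.0466 in edgeR) and by -0.75 in Dnmt3a-ADD FGOs (SE 0.25, adjusted p = 0.0346). *Runx1*, a transcription factor of blood development, differed by -1.54 in double mutant FGOs (SE 0.46, adjusted p = 0.0254 in edgeR). *Mbnl2*, an RNA-binding regulator of splicing, differed by -1.19 there (SE 0.40, adjusted p = 0.0457 in edgeR). *Sall3*, a zinc finger gene, differed by -2.10 in Dnmt3a-ADD FGOs (SE 0.62, adjusted p = 0.0180 in edgeR). *Bbx* was also lower, in both Dnmt3a-ADD (-0.57) and double mutant FGOs (-0.50). The comparisons share their wild-type FGOs.

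The genes whose log2 CPM most closely followed *Gab1*, *Sfmbt2* and *Smoc1* over the 52 oocytes were *Jund* and *Gm42547* for *Gab1* (Pearson r = 0.52 and 0.49), *Redrum* and *4930467D21Rik* for *Sfmbt2* (0.48 and 0.46), and *Pank1* and *Plau* for *Smoc1* (0.71 and 0.71). These are the highest of 15784 genes and are given as a description, since the libraries share stage, genotype and class of mapped reads.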

How the data were processed

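The authors made a sequencing library from each single oocyte with the SMART-Seq HT kit and from poly(A) RNA of each embryo, aligned reads to mm10 with STAR and deposited raw counts per gene (HTSeq is named in the submitters' processing notes, HTSeq and featureCounts in the methods). For embryos the authors deposited 1 table of counts for the maternal and 1 for the paternal allele. The allele assignment, the annotation release and the strand setting are not given in the sources used here. The embryo tables also hold 8 columns of wild-type embryos, 4 in each table, which could serve as a control for the allelic shares. They match no sample of the series given here and were not used.

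From the deposited counts, 42 FGO libraries were tested in 1 edgeR 4.0.16 fit (R 4.3.3; TMM scaling; genes kept by filterByExpr at 10 counts; quasi-likelihood F test; p adjusted by Benjamini-Hochberg over 15726 genes, threshold 0.05), and all 52 oocytes in a second fit of 15784 genes for MII. The alleles of 10844 genes were compared with the embryo as a block, since both alleles share a library (the correlation of their deviations was at least 0.34). Likeness used log2 CPM with a prior count of 2. That of *Jade1* is not reported here. Standard errors are the log2 difference over the root of F. DESeq2 1.42.0, edgeR's exact test, other scaling, other filters, the class of mapped reads, the replicate number as a block and left-out libraries were alternatives. The fits were tested on simulated data. The simulated alleles had the same set share in every embryo apart from random spread, unlike *Sfmbt2* and *Gab1*, so that test does not cover such genes. Replicates differed by more than counting noise (chi-square per degree of freedom of at least 5.02). Promoter windows came from RefSeq (GRCm38.p6), with 4 of 5 members matched. The members, the gene lists and the tests were chosen with earlier results of these data known. Genes outside the members were named as up to 4 with the largest difference past the threshold in a list, as the lowest or highest shares, as neighbours, or as defining markers, with exceptions marked in the text. Figures were drawn with matplotlib 3.10.9.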

Additional observations from a re-analysis of the deposited data

Results flagged for a closer look

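In groups of 8 or 10 oocytes, 5 of the 20 combinations of member and group held 1 library that stood apart by Dixon's test. For normally distributed values that test flags about 1 in 20 groups by chance. Many groups here have few counts and ties at 0, so the 5 cannot be read as an excess. *Gab1* was at 17.7 CPM in double mutant FGO replicate 3, where the next highest had 6.86 CPM, and without that library its log2 difference from wild-type FGOs moved from 0.01 to -0.50. *Jade1* was at 4.24 CPM in Dnmt3a-ADD FGO replicate 8 (next highest 1.17 CPM), a library that also had the highest theca and stroma marker sum of its group (48.5 CPM), and without it the difference moved from 0.35 to -0.42. *Jade1* was at 1.25 CPM in wild-type MII replicate 9. *Sfmbt2* was at 1.37 CPM in Dnmt3L-ADD FGO replicate 5, and *Slc38a4* was at 0.672 CPM in Dnmt3L-ADD FGO replicate 1, and these values rest on 12 and 8 counts.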

How the results depend on the processing

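Directions and calls of the members were recomputed under each alternative. In double mutant against wild-type FGOs the 1 called member (*Smoc1*) became 0 without a filter beyond 1 count (adjusted p = 0.0923), with the replicate block (0.208, edgeR), with the class as covariate, and in the lower class alone, where the gene was not tested, and the count ranged from 0 to 1 when 1 double mutant library was left out. Against Dnmt3a-ADD FGOs it became 0 without the filter. In MII oocytes 2 became 1 without the filter and with the class as covariate. For the alleles, 0 became 1 without the filter, 2 with DESeq2 and 0 to 3 when 1 embryo was left out (3 without embryo 1), while all genes called ranged from 0 to 772 and no member was called without a replicate block. Replicate numbers did not pair FGOs (median correlation of same-numbered libraries -0.02), and the replicate block changed no other call. Reversed values, none of them called, were *Jade1* in Dnmt3a-ADD FGOs (-0.016 with the replicate block, -0.14 in the higher class, -0.42 to 0.50 when 1 replicate was left out, lowest without replicate 8), *Sfmbt2* there (-0.37 in the lower class), *Smoc1* there (-0.034 with the replicate block, -0.095 in the lower class, -0.28 to 0.25 with 1 left out, below 0 without replicate 3 or 8), *Gab1* in double mutant FGOs (-0.47 with the replicate block, -0.29 with the class as covariate, -0.00055 with DESeq2, -0.36 in the lower class, -0.50 to 0.15 with 1 left out, below 0 without replicate 3 or 7), *Gab1* against Dnmt3L-ADD FGOs (-0.20 with the class as covariate), and *Jade1* alleles (0.17 unscaled, -0.17 to 0.12 with 1 embryo left out). The causes were not tested. Scaled to an autosomal median of 1 to 1, mean maternal shares were 13.1% for *Sfmbt2*, 24.1% for *Gab1* and 31.1% for *Slc38a4*. Counts of a few reads per oocyte limit every member except *Gab1*.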

Other observations

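Chosen after the values were seen, 14 of 7377 autosomal genes (0.19%) with at least 100 allelic counts in embryos 2 and 3 had a maternal share under 20% in both. They include *Gab1* and *Sfmbt2*, the paternally expressed *Igf2* and *Dlk1*, and genes at similarly low shares in all 3 embryos such as *Entpd4* (0%, 2.46% and 0%) and *Cdk2ap1* (15.2%, 13.7% and 16%). *Igf2* had shares of 0.488%, 2.31% and 11.8%, and *Dlk1* 9.17%, 7.34% and 13.3%. Besides *Gab1*, 1 of the 14 was over 40% in embryo 1, namely *Sfi1*, with 48.8%, 18.1% and 17.2% from 127, 248 and 163 allelic counts.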
